A study of Mus musculus with 15 samples.

Results

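RNA from mouse cerebellum carrying ATXN1[82Q], a human ataxin 1 transgene with an expanded run of 82 glutamines, was compared directly with RNA from cerebellum carrying the same transgene with 2 amino acid substitutions, V591A and S602D. The comparison takes all 5 libraries of each of these genotypes, 10 of the 15 libraries of the series, chosen by their genotype labels. The other 5 libraries are wild type and are given as the level without a transgene. All mice were of the FVB strain, and both transgenes carry the promoter of Pcp2, a gene of Purkinje cells, so that within the cerebellum the protein is made mainly in a single type of neuron while the RNA comes from the whole tissue. The labels give the genotypes as Pcp2-ATXN1[82Q] and Pcp2-ATXN1[82Q]V591A;S602D, give no age and no treatment, and do not say whether libraries of a genotype came from separate animals, so p-values cover the spread between these libraries. Below, the doubly substituted transgene is called the substituted transgene.

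Purkinje cells are the only output neurons of the cerebellar cortex, and they are lost in spinocerebellar ataxia type 1, the disease caused by an expanded glutamine run in ATXN1. ATXN1 binds Capicua (CIC), a DNA-binding repressor of genes induced by receptor tyrosine kinase and ERK signalling, through a domain called AXH, and the substitutions lie in that domain and weaken the binding. The direct comparison therefore asks which RNAs differ between cerebella that make an expanded ATXN1 with and without its normal hold on CIC. Counts were made against mouse genes, so the RNA of the human transgenes was not measured, and a difference in transgene level between the lines was not tested. In bulk tissue, fewer cells of a type and less RNA per cell cannot be told apart.

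Libraries held 36467948 to 42818401 counts on genes in ATXN1[82Q] and 38468429 to 41480492 in the substituted genotype. Neighbouring tissue was unevenly represented. Ttr, the transthyretin made by choroid plexus, lay below 100 CPM (counts scaled to a common library size) in 2 of 5 libraries of each transgenic genotype and above it in the other 3 of each. A list of 20 brainstem neuron markers, of which 9 could be tested, summed to between 29.3 and 108 CPM in ATXN1[82Q] and between 28.4 and 34.9 CPM in the substituted genotype, against 15.8 to 38.6 CPM in wild type, where Isl1 was at 0 in every library. The part of neighbouring tissue in the results was not tested beyond the values given here. Its mean was highest in ATXN1[82Q] replicates 2 and 5. For the genes named below, results are given without both of these libraries where that ends a call. Purkinje and granule cell markers such as Calb1 and Gabra6 were abundant in every library.

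Of 15843 genes tested, 4454 (28.1%) differed between ATXN1[82Q] and the substituted genotype at an adjusted p under 0.05 in edgeR's quasi-likelihood test with Benjamini-Hochberg adjustment. In ATXN1[82Q] 2134 genes (13.5%) were higher and 2320 (14.6%) were lower. Most differences were small. Only 158 genes (0.997%) were higher and 51 (0.322%) were lower by over 2-fold, and 572 (3.61%) were higher and 197 (1.24%) lower by over 1.5-fold. The genes that were more than 2-fold higher were mostly of low level, with 83 of the 158 under 1 CPM in both genotypes, against 6 of the 51 that were more than 2-fold lower. The highest ATXN1[82Q] library lay below the lowest substituted library, or the reverse, in 2835 genes (17.9%), of which 1312 (8.28%) were higher and 1523 (9.61%) lower in ATXN1[82Q]. For scale, the same fit called 223 genes (1.41%) between the substituted genotype and wild type, 33 higher (0.208%) and 190 lower (1.2%), and 4993 (31.5%) between ATXN1[82Q] and wild type. These comparisons share libraries with the direct one, so their values are set beside it below and are not independent of it. With both ATXN1[82Q] libraries that were rich in brainstem markers left out, 1380 genes were higher and 1835 lower, and 2980 of the 4454 genes were still called, all with the same sign.

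**Figure D1:**
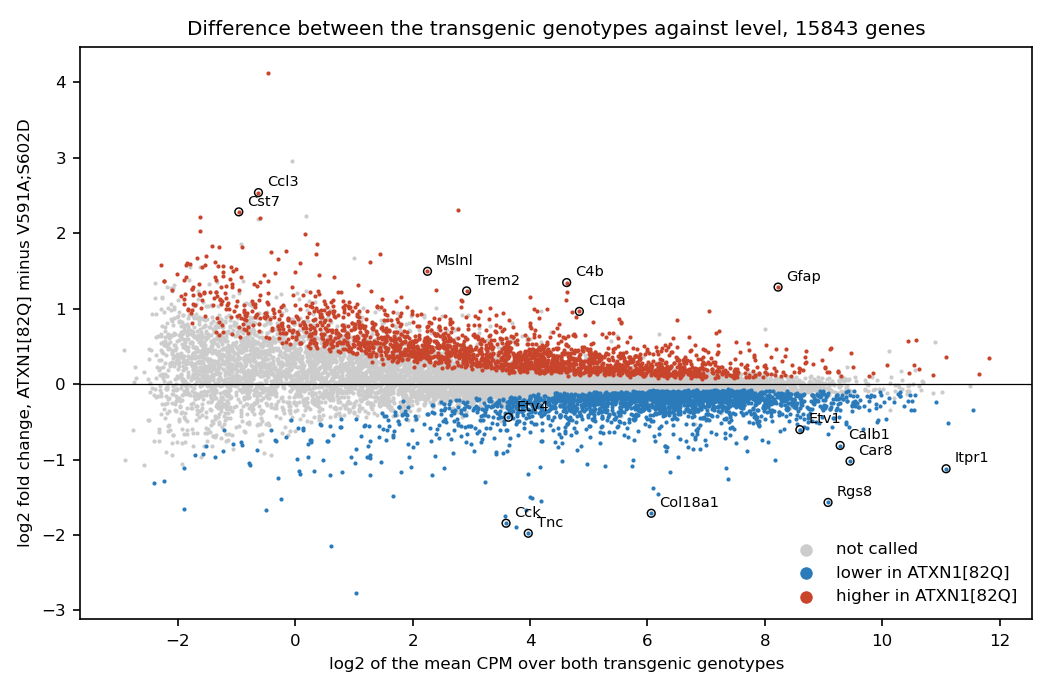
Each point is one of the 15843 tested genes, with the log2 of its mean CPM over the 10 transgenic libraries on the x axis and the log2 fold change of ATXN1[82Q] against the substituted genotype on the y axis. Genes called lower (blue) include abundant Purkinje cell genes such as Itpr1 and Rgs8, while those called higher by the largest folds (red) lie mostly at low levels, with Gfap at 425 CPM an exception.

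The largest falls included genes of the extracellular matrix and of secreted signals, and Purkinje cell signalling genes. By the rule for named genes, the 12 largest falls were Tnc, Trabd2b, Cck, Gpr63, Col18a1, Fgf7, Rgs8, Col5a1, Tspan11, Nek2, Gng13 and Doc2b, a rule that takes only genes whose genotypes do not overlap. Tnc (4:63959785-64047015, GRCm38), which encodes the matrix glycoprotein tenascin C, stood at 9.22, 6.34, 5.07, 6.31 and 4.90 CPM in ATXN1[82Q] and at 19.0, 25.9, 33.6, 18.8 and 27.6 CPM in the substituted libraries, in order of replicate. The lowest substituted libraries, replicates 1 and 4, were still about 2 times the highest ATXN1[82Q] library. Tnc was 3.94-fold lower in ATXN1[82Q] (log2 fold change -1.98 ± 0.18 SE, edgeR adjusted p = 1.81e-06), with wild type at 32.8 ± 5.30 CPM (SD, n = 5).

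Other genes of this set encode collagens and secreted or membrane proteins. Col18a1 (10:77052178-77166548), whose product is cleaved to endostatin, stood at 31.3 ± 2.31 CPM in ATXN1[82Q], 103 ± 31.7 in the substituted genotype and 142 ± 8.26 in wild type, which is 3.28-fold lower in the direct comparison (edgeR adjusted p = 1.15e-06). Col5a1, a fibrillar collagen chain, stood at 9.20 ± 1.10, 27.1 ± 11.0 and 43.1 ± 5.12 CPM in the same order. Fgf7, a growth factor of the fibroblast growth factor family, stood at 7.32 ± 1.22, 23.2 ± 10.7 and 48.2 ± 3.60 CPM, and its substituted level was itself below wild type (log2 fold change -1.06, edgeR adjusted p = 0.0127). Trabd2b, a membrane protease that cleaves Wnt proteins, stood at 5.74 ± 1.15, 21.4 ± 6.49 and 36.6 ± 3.62 CPM, 3.73-fold lower in ATXN1[82Q].

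Cck (9:121489824-121495694), which encodes the neuropeptide cholecystokinin, stood at 5.29, 5.06, 4.13, 6.09 and 5.66 CPM in the ATXN1[82Q] libraries. In the substituted libraries it stood at 12.3, 16, 23.9, 18.5 and 23.6 CPM. Every ATXN1[82Q] library was thus below every substituted library, and the substituted libraries spread over a nearly 2-fold range while the ATXN1[82Q] libraries did not. The difference was 3.59-fold (log2 fold change -1.84 ± 0.15 SE, edgeR adjusted p = 6.34e-07), with wild type at 27.4 ± 2.37 CPM. Of its receptors only Cckbr could be tested, at 2.68 ± 1.02 CPM in ATXN1[82Q] and 2.52 ± 0.392 in the substituted genotype, and it did not pass (log2 fold change 0.09 ± 0.23 SE, edgeR adjusted p = 0.81).

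The substituted libraries differed among themselves in a shared direction for these genes. Over the 12 largest falls, substituted replicate 1 was the lowest of its group in 11 and replicate 3 the highest in 11. Over all 15843 tested genes, replicate 1 was lowest in 3833 and replicate 3 highest in 2927. The SD of log2 CPM was larger among the substituted than among the ATXN1[82Q] libraries in 12 of 12 of these falls. The medians were 0.40 and 0.15. This SD was larger in 43.8% of all tested genes and in 8 of the 12 largest rises. The falls were chosen by the values of these same libraries. Over the 29 Purkinje cell markers, replicate 1 was lowest in 21 and replicate 3 highest in 24. For 19 of these 29 markers the SD was larger among the substituted libraries. Genes of a library share its tissue piece and its amplification, so these counts describe 5 libraries and not 12 or 29 independent observations. The replicate numbers have no order.

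Purkinje cell markers were lower in ATXN1[82Q] almost throughout. Of 29 tested, 26 fell, against 14.6% of all genes, and the median log2 fold change was -0.73 against 0.01 over all tested genes. The exceptions were Sv2c, Foxp2 and Nefh, which did not pass the test. In the comparison with wild type that shares these libraries, 17 of the 29 were also lower in the substituted genotype, against 1.2% of all genes, with a median of -0.35 against -1.07 for ATXN1[82Q]. The summed level of the list ran from 7398 to 7855 CPM in ATXN1[82Q], from 10563 to 14107 CPM in the substituted genotype and from 14961 to 16458 CPM in wild type, without overlap of the groups.

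Rgs8 (1:153653025-153700323), a regulator that shortens G protein signals in Purkinje cells, stood at 291, 262, 282, 273 and 255 CPM in ATXN1[82Q]. In the substituted libraries it stood at 601, 740, 1110, 715 and 876 CPM. All substituted libraries were at least 2 times as high as any ATXN1[82Q] library and all lay below the wild-type mean of 1287 ± 93.4 CPM. Rgs8 was 2.97-fold lower in ATXN1[82Q] (log2 fold change -1.57 ± 0.12 SE, edgeR adjusted p = 2.64e-07), and the substituted genotype differed from wild type by -0.67 (edgeR adjusted p = 0.00463).

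Calb1 (4:15881264-15908064), the calcium buffer calbindin and the usual histological marker of Purkinje cells, stood at 496, 452, 475, 449 and 388.9 CPM in ATXN1[82Q] and at 741, 764, 912, 773 and 785 CPM in the substituted libraries. The groups did not overlap, and substituted replicate 3 stood above its 4 neighbours. Calb1 was 1.76-fold lower (log2 fold change -0.81 ± 0.07 SE, edgeR adjusted p = 4.21e-07), with wild type at 1050 ± 49.6 CPM. Pcp2 (8:3623371-3625545), the gene whose promoter drives the transgenes, stood at 58.1 ± 4.65 CPM in ATXN1[82Q], 103 ± 6.85 in the substituted genotype and 106 ± 3.00 in wild type, and was 1.77-fold lower in the direct comparison (edgeR adjusted p = 7.03e-08). Exons of Pet100 overlap 51.5% of the exon length of Pcp2, and exons of Chtf18 overlap 51.6% of that of Gng13, so that reads of either pair may have been shared or lost in counting.

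The other Purkinje cell markers that passed were lower by unequal folds. Gng13, a G protein gamma subunit, stood at 38.5 ± 3.99 CPM in ATXN1[82Q] and 106 ± 30.7 in the substituted genotype. Icmt, which methylates prenylated proteins, stood at 191 ± 11.3 and 385 ± 69.6 CPM, and Ppp1r17, an inhibitor of protein phosphatases found in Purkinje cells, at 153 ± 10.9 and 251 ± 21.2 CPM. The transcription factor Rora, whose loss causes the staggerer phenotype, stood at 294 ± 13.3 and 374 ± 23.5 CPM with wild type at 437 ± 21.6, a 1.27-fold difference in the direct comparison (edgeR adjusted p = 7.25e-05). Foxp2, a transcription factor of Purkinje cells, stood at 12.4 ± 1.70, 13.8 ± 0.953 and 11.7 ± 0.663 CPM and did not pass (log2 fold change -0.15 ± 0.08 SE, edgeR adjusted p = 0.177), although it passed without ATXN1[82Q] replicate 1 (-0.23, edgeR adjusted p = 0.0336).

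**Figure D2:**
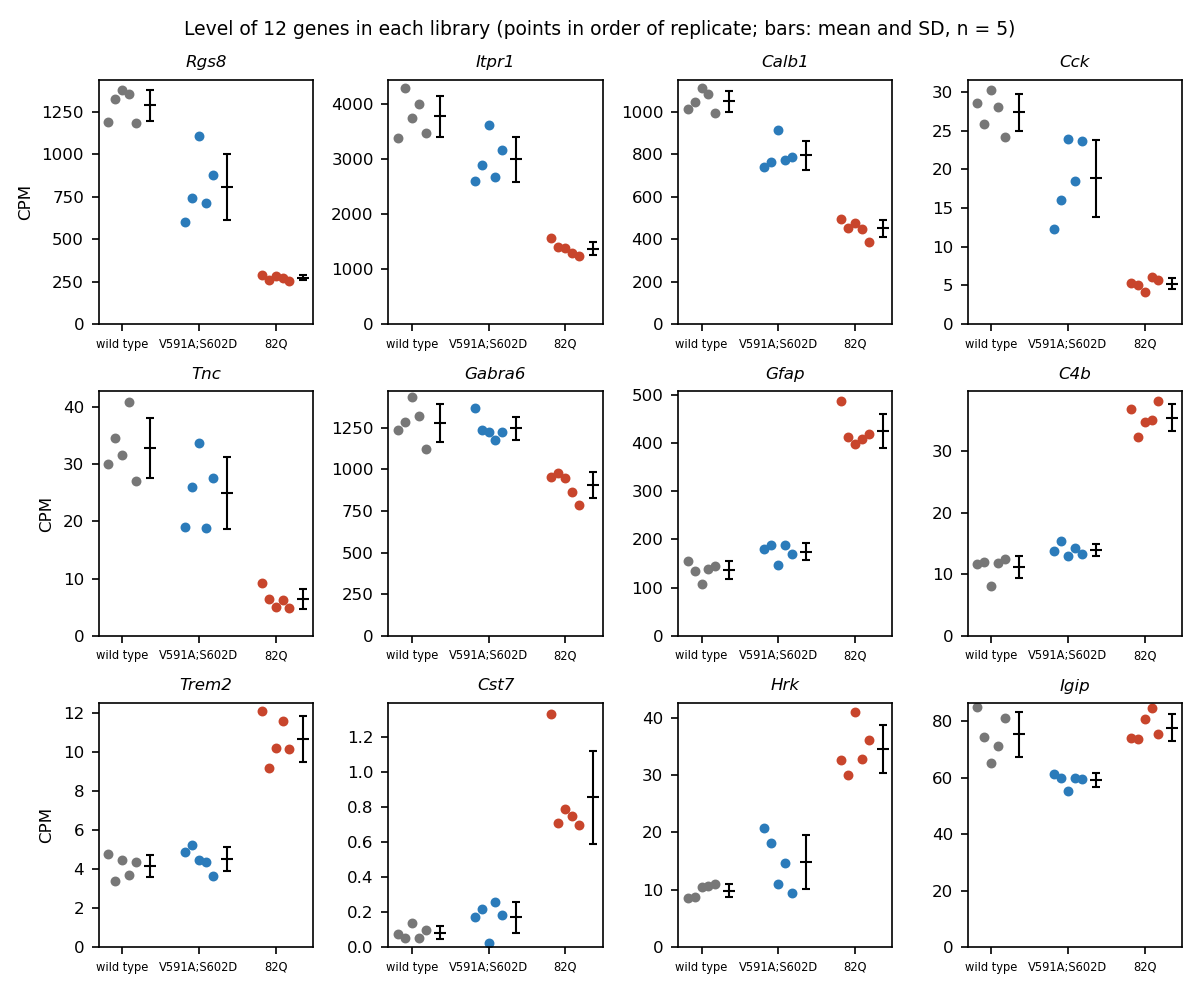
CPM of 12 genes (y axis, linear from 0) in each of the 5 wild-type (grey), 5 substituted (blue, V591A;S602D) and 5 ATXN1[82Q] (red, 82Q) libraries, with bars for the mean and SD. Rgs8, Itpr1, Calb1, Cck and Tnc were lowest in ATXN1[82Q] with the substituted libraries between 82Q and wild type on average. Gfap, C4b, Trem2 and Cst7 were highest in ATXN1[82Q], with the substituted mean above that of wild type. Igip was lowest in the substituted libraries.

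Purkinje cells answer climbing and parallel fibre input in part through metabotropic glutamate signalling, which acts through Gq and phospholipase C beta to release calcium through the inositol trisphosphate receptor Itpr1. Of 33 tested genes of this route and of calcium handling, 27 fell and 1, Pde1b, rose, against 14.6% and 13.5% of all genes, with a median log2 fold change of -0.45. This list shares members with the Purkinje cell markers, among them Rgs8, Itpr1 and Itpka, so the counts of these lists are not separate results. Itpr1 (6:108213096-108551109) stood at 1555, 1399, 1379, 1300 and 1228 CPM in ATXN1[82Q] and at 2603, 2892, 3605, 2677 and 3158 CPM in the substituted libraries. Every substituted library was higher than every ATXN1[82Q] library, and the difference was 2.18-fold (log2 fold change -1.12 ± 0.09 SE, edgeR adjusted p = 4.21e-07), with wild type at 3769 ± 372 CPM.

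The members of the route fell by unequal amounts. Atp2a3, a pump that refills the endoplasmic reticulum with calcium, was 2.38-fold lower, at 97.8 ± 10.9 against 233 ± 38.7 CPM. Car8, a carbonic anhydrase-like protein that binds Itpr1, was 2.03-fold lower, at 463 ± 44.7 against 939 ± 94.6 CPM. Itpka, which phosphorylates inositol trisphosphate, was 2.08-fold lower, and Homer3, a postsynaptic scaffold protein, 1.81-fold. Camk2a, a calcium-dependent kinase subunit, stood at 56.3 ± 5.20 against 104 ± 20.7 CPM, which is 1.84-fold lower. Pde1b, a calmodulin-dependent phosphodiesterase, was higher at 54.5 ± 6.10 against 41.1 ± 4.83 CPM (log2 fold change 0.41 ± 0.09 SE, edgeR adjusted p = 0.00293), with an overlap of the groups, and this call was lost among the libraries with Ttr under 100 CPM (0.19, edgeR adjusted p = 0.137).

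Among 30 potassium and sodium channel genes, 16 fell and 2 rose, against 14.6% and 13.5% of all genes, with a median of -0.23. Kcnab1, a potassium channel beta subunit, was 1.79-fold lower, at 73.7 ± 6.83 against 132 ± 13.4 CPM, and Kcnip1, a potassium channel interacting protein, was 1.68-fold lower. Kcnma1, the large-conductance calcium-activated potassium channel, was 1.58-fold lower, at 66.8 ± 5.33 against 106 ± 13.3 CPM. Kcnc1, a fast potassium channel that lets neurons fire at high rates, was lower at 552 ± 6.74 against 780 ± 66.5 CPM. Kcnc2 went the other way, at 10.6, 17.4, 8.84, 9.91 and 23 CPM in ATXN1[82Q] against 6.46, 7.12, 6.63, 6.84 and 9.92 CPM (edgeR adjusted p = 0.0115). Its highest values were in ATXN1[82Q] replicates 2 and 5, which were also highest in brainstem markers, and without both it did not pass (0.40, edgeR adjusted p = 0.164).

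Of 25 genes of ionotropic glutamate receptors and glutamate transport 14 fell and 4 rose, against 14.6% and 13.5% of all genes, with a median of -0.18, and the share that rose was near that of all genes. Slc1a6, the Purkinje cell glutamate transporter EAAT4, was 1.59-fold lower, at 83.5 ± 7.51 against 133 ± 10.3 CPM. Of 19 genes of GABA and glycine transmission 9 fell and 2 rose, against the same shares. Both subunits of the GABA-B receptor were lower, Gabbr1 1.48-fold at 459 ± 9.82 against 680 ± 86.4 CPM and Gabbr2 1.42-fold at 140 ± 6.40 against 198 ± 24.0 CPM. Gabra3 was 1.26-fold higher, at 31.7 ± 3.83 against 25.1 ± 0.994 CPM (edgeR adjusted p = 0.00106), a call lost among the libraries with Ttr under 100 CPM (0.20, edgeR adjusted p = 0.121).

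Genes of granule cells, the small neurons whose axons form the parallel fibres, were lower too. Of 21 granule cell markers 20 fell, against 14.6% of all genes, and Barhl1 did not pass, with a median of -0.28. The median difference of the substituted genotype from wild type was 0.04, and that of ATXN1[82Q] -0.20. Gabra6 (11:42306437-42321072), a GABA receptor subunit particular to granule cells, stood at 955, 976, 949, 863 and 786 CPM in ATXN1[82Q] and at 1367, 1239, 1227, 1177 and 1224 CPM in the substituted libraries. These groups did not overlap, while substituted and wild-type libraries (1280 ± 116 CPM) did. Gabra6 was 1.38-fold lower (log2 fold change -0.46 ± 0.07 SE, edgeR adjusted p = 0.000145). Rims1, a protein of the presynaptic active zone, was 1.57-fold lower, and Chn2, a Rac regulator, 1.42-fold lower. Among libraries with Ttr under 100 CPM, 2 of each transgenic genotype, 8 of the 21 markers were called lower. Of all 15862 genes tested there, 904 were lower.

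Markers of the other cerebellar interneurons moved little. Of 18 tested 5 rose, against 13.5% of all genes, with a median of 0.15. Nxph1, a ligand of neurexins, was 1.30-fold higher, at 19.1 ± 1.36 against 14.7 ± 0.638 CPM (edgeR adjusted p = 0.000202). Kit, the receptor of molecular layer interneurons, was 1.2-fold higher, at 386.5 ± 23.6 against 323 ± 11.6 CPM (edgeR adjusted p = 0.0022), and it did not pass among the libraries with Ttr under 100 CPM (0.30, edgeR adjusted p = 0.0771).

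**Figure D3:**
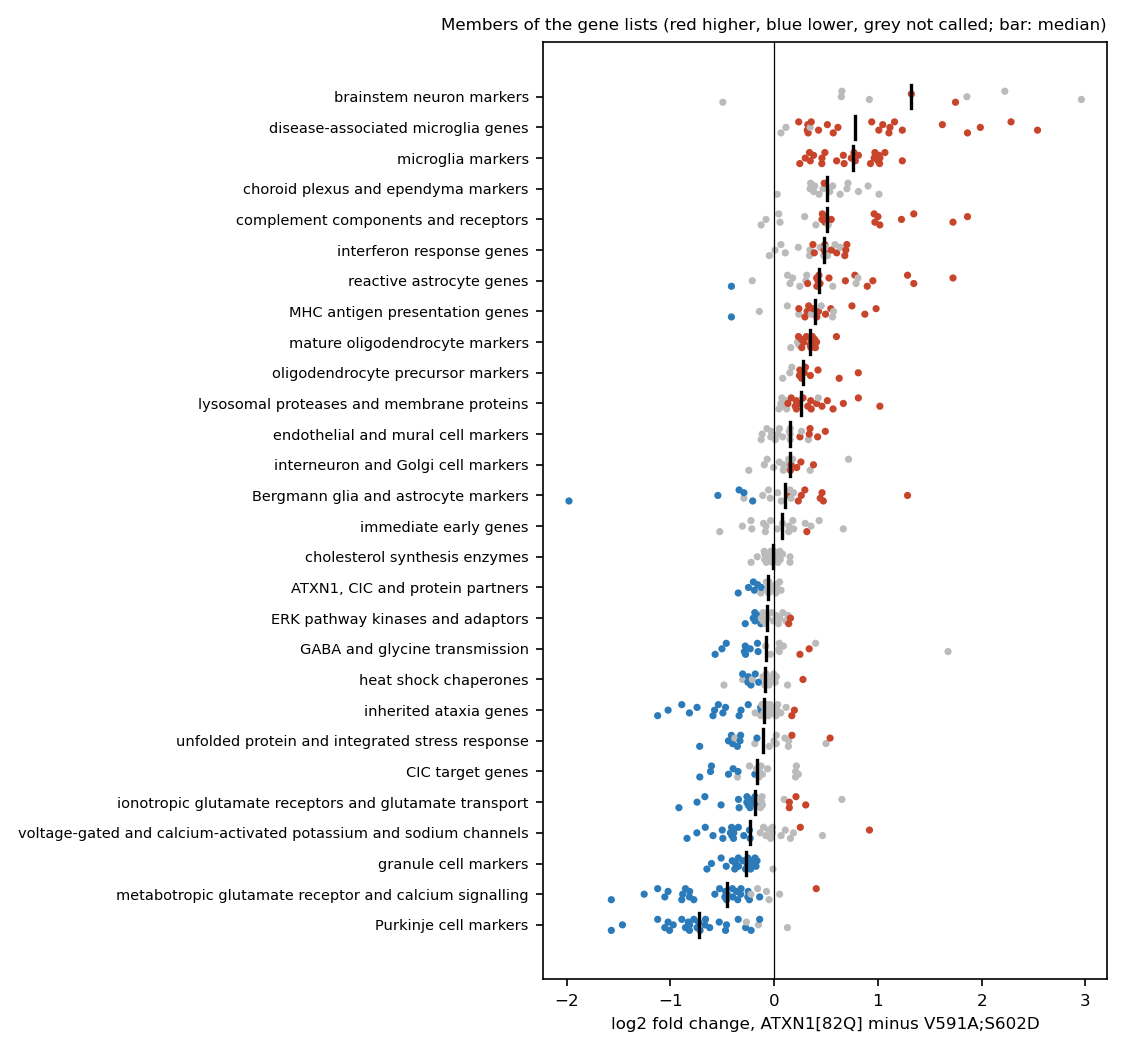
Log2 fold change of ATXN1[82Q] against the substituted genotype (x axis) for each tested member of 28 gene lists (y axis, ordered by median), with red points for genes called higher, blue for genes called lower, grey for genes that did not pass and a black bar for the median. Purkinje cell markers had the lowest median (-0.73), and disease-associated microglia genes (0.78) and the 9 tested brainstem markers (1.32) the highest.

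The mouse genes of the ATXN1 and CIC complex differed little between the transgenic genotypes. Atxn1 (13:45549755-45965008) stood at 85.0, 77.6, 78.5, 75.7 and 67.1 CPM in ATXN1[82Q] and at 80.5, 87.8, 86.3, 78.7 and 86.3 CPM in the substituted libraries. The groups overlapped and it did not pass (log2 fold change -0.13 ± 0.07 SE, edgeR adjusted p = 0.202), with wild type at 70.1 ± 9.03 CPM. Cic stood at 295 ± 17.6 against 322 ± 8.65 CPM (log2 fold change -0.12 ± 0.04 SE, edgeR adjusted p = 0.0455). Its call was lost on leaving out ATXN1[82Q] replicate 1, 3 or 5 (adjusted p = 0.097, 0.0786 and 0.124) or substituted replicate 1, 2, 3 or 5 (0.06, 0.069, 0.0782 and 0.108), and without both brainstem-rich libraries (0.0783). Atxn1l, a paralog of ATXN1 that also binds CIC, stood at 56.7 ± 3.36 against 63.2 ± 3.45 CPM (edgeR adjusted p = 0.0303), and lost its call without ATXN1[82Q] replicate 2, 3 or 4 (adjusted p = 0.0545, 0.0668 and 0.0746) or substituted replicate 1 or 3 (0.0735 and 0.0804), and without both brainstem-rich libraries (0.0555). Of the 19 tested genes of the complex and its partners 6 fell, against 14.6% of all genes, with a median of -0.05. The largest of these falls was that of Rora, given above among the Purkinje cell markers. Ncor1, a corepressor scaffold, was 1.19-fold lower at 311 ± 10.7 against 369 ± 17.8 CPM (edgeR adjusted p = 0.00164).

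Known CIC targets, which CIC represses, were lower or did not differ detectably in ATXN1[82Q]. Of 19 tested, 7 fell, against 14.6% of all genes, namely Dusp4, Shc3, Etv1, Etv4, Dusp5, Spred3 and Ptpn9, and the median was -0.17. With edgeR no target rose, while 1 was higher at an unadjusted p under 0.05. Ptpn9, a tyrosine phosphatase, was only 1.14-fold lower (edgeR adjusted p = 0.0337), and lost its call without ATXN1[82Q] replicate 3 or 5 (adjusted p = 0.065 and 0.0947) or substituted replicate 1 or 3 (0.0668 and 0.0801), and without both brainstem-rich libraries (0.126). Shc3, an adaptor of neuronal receptors, was 1.53-fold lower (edgeR adjusted p = 0.0147), a call lost with the brainstem marker mean as a covariate (adjusted p = 0.0742). The target higher at an unadjusted p was Ccnd1, the cell cycle cyclin D1, at 35.0 ± 2.02 against 30.2 ± 3.69 CPM (edgeR adjusted p = 0.0547), which was called by DESeq2 (adjusted p = 0.0377) and without substituted replicate 2 (edgeR adjusted p = 0.0183).

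The ETS factors Etv1, Etv4 and Etv5 are direct CIC targets. Etv4 (11:101769742-101785371) stood at 10.0, 9.76, 10.2, 12 and 10.6 CPM in ATXN1[82Q] and at 12.8, 15.2, 15.9, 13 and 14.5 CPM in the substituted libraries. The groups did not overlap, both lay below the wild-type mean of 17.7 ± 2.62 CPM, and the difference was 1.36-fold (log2 fold change -0.44 ± 0.09 SE, edgeR adjusted p = 0.00232), though it did not pass among libraries with Ttr under 100 CPM (-0.42, edgeR adjusted p = 0.123). Etv1, which is also a granule cell gene, stood at 329, 333, 327, 288 and 261 CPM against 517, 462, 465, 424 and 471 CPM, without overlap. It was 1.52-fold lower in ATXN1[82Q] (edgeR adjusted p = 5.32e-05), and the substituted genotype was at the wild-type level of 483 ± 55.2 CPM within their spread. Etv5 stood at 62.0 ± 13 against 79.2 ± 4.03 CPM, without overlap, and did not pass (edgeR adjusted p = 0.0589). It passed without ATXN1[82Q] replicate 2 (-0.43, edgeR adjusted p = 0.0316) and with only the 10 transgenic libraries (0.0452). Etv5 also passed with Ttr (0.0305) or the sex-linked transcript Xist (0.0447) as a covariate. The same held among libraries with Ttr under 100 CPM (0.0331) and with the replicate number as a block (0.0131). In 14 of 20 alternatives it stayed uncalled.

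Other CIC targets include feedback inhibitors of ERK signalling. Dusp4, a phosphatase of ERK, stood at 4.14 ± 1.07 against 6.81 ± 0.987 CPM, which is 1.64-fold lower (edgeR adjusted p = 0.00486). Dusp5, another such phosphatase, stood at 35.0 ± 3.29 against 46.0 ± 2.79 CPM (log2 fold change -0.40 ± 0.08 SE, edgeR adjusted p = 0.00211). Spred3, a Sprouty-related inhibitor, stood at 32.1 ± 3.70 against 40.8 ± 4.01 CPM (-0.35 ± 0.10 SE, edgeR adjusted p = 0.0148), and lost its call with the brainstem marker mean as a covariate (adjusted p = 0.108). Spry4 stood at 13 ± 2.84 against 14.4 ± 4.34 CPM and did not pass (edgeR adjusted p = 0.657). Among 22 kinases and adaptors of the ERK pathway itself 6 fell and 2 rose, against 14.6% and 13.5% of all genes, with a median of -0.07. The adaptor Grb2 was 1.21-fold lower, at 160 ± 4.10 against 194 ± 5.28 CPM (edgeR adjusted p = 4.77e-06), and the kinase Map2k1 1.14-fold lower, though Map2k1 did not pass among libraries with Ttr under 100 CPM (adjusted p = 0.0536).

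**Figure D4:**
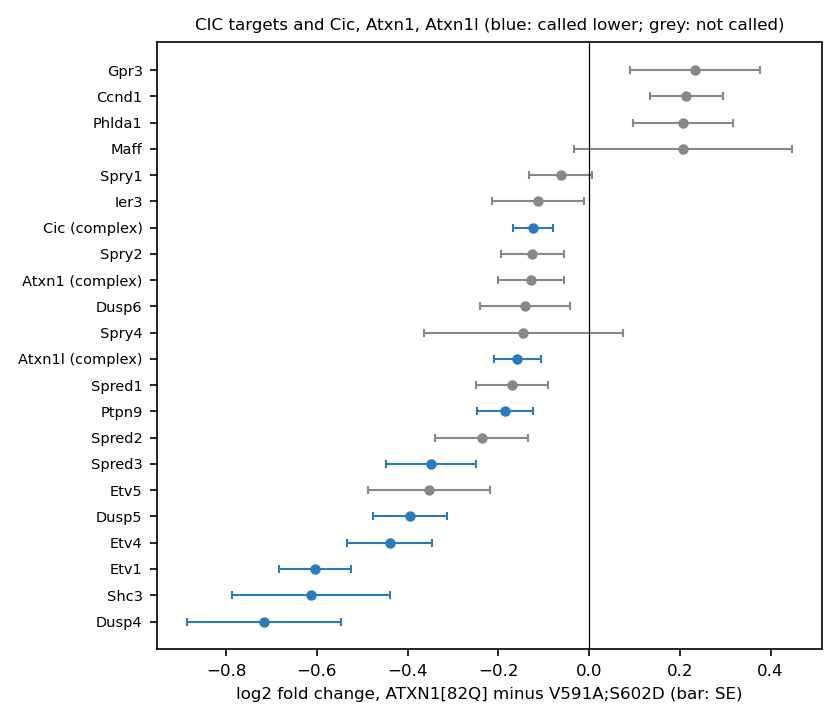
Log2 fold change of ATXN1[82Q] against the substituted genotype (x axis, bars for the SE) for the 19 tested CIC targets and for Cic, Atxn1 and Atxn1l (y axis). The 7 targets called lower (blue) include Dusp4 at -0.72 and Etv1 at -0.60, and no target was called higher.

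CIC binds the octamers TGAATGAA and TGAATGGA, and promoters were searched for them on both strands in windows from 250 bases before to 50 after each start (RefSeq, GRCm38.p6). Of 32851 windows 2.47% held one. Of the 19 targets 13 had an entry, and a match was found in 2 of these. Both are shown because they carry the octamer, in capitals, within a few bases of the annotated start: it begins 10 bases before the start of Spred3 (chr7:29168648-29168707, minus strand) and 2 bases before that of Maff (chr15:79347468-79347527, plus strand, in 1 of its 3 windows).
Spred3: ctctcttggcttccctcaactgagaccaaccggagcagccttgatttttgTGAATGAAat
Maff: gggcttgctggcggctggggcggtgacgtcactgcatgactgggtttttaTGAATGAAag
Spred3 fell in ATXN1[82Q], as given above, whereas Maff, a small MAF transcription factor, stood at 1.31 ± 0.197 against 1.14 ± 0.420 CPM and did not pass (edgeR adjusted p = 0.557). Over all tested genes with a window, 2.08% of those called lower, 2.19% of those called higher and 1.91% of the rest held an octamer. A match is a stretch of letters and not a measured binding site.

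Among 37 tested genes mutated in inherited ataxias 15 fell and 2 rose, against 14.6% and 13.5% of all genes, with a median of -0.10. They include Itpr1 and Car8, given above, and Cacna1g, a T-type calcium channel, which was 1.85-fold lower at 146 ± 9.10 against 271 ± 49.7 CPM. Cacna1a, the P/Q-type calcium channel, was 1.19-fold lower, at 412 ± 21.3 against 490 ± 19.6 CPM (edgeR adjusted p = 0.00244), a call lost among libraries with Ttr under 100 CPM (-0.25, edgeR adjusted p = 0.074).

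Astroglial genes went in both directions. Of 22 Bergmann glia and astrocyte markers 8 rose and 5 fell, against 13.5% and 14.6% of all genes, with a median of 0.11. Gfap (11:102887336-102900912), the intermediate filament of reactive astrocytes, stood at 488, 412, 398.1, 407 and 418 CPM in ATXN1[82Q] and at 179, 188, 146, 188 and 170 CPM in the substituted libraries. Each ATXN1[82Q] library was more than 2 times as high as any substituted library, with replicate 1 above its group. Wild type stood at 136 ± 17.9 CPM (107 to 155), and only substituted replicate 3 lay within that range. The substituted genotype did not pass against wild type (log2 fold change 0.36, edgeR adjusted p = 0.0537). In the direct comparison Gfap was 2.44-fold higher in ATXN1[82Q] (log2 fold change 1.29 ± 0.09 SE, edgeR adjusted p = 9.96e-08). The water channel Aqp4 was 1.39-fold higher, at 655 ± 49.0 against 471 ± 26.5 CPM, and the gap junction proteins Gja1 and Gjb6 were 1.38-fold and 1.36-fold higher.

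Bergmann glia are the radial astrocytes that wrap Purkinje cell dendrites. The list was not divided into their markers and those of other astrocytes. Tnc, described above, was among the 5 members that fell. Slc1a3, the glutamate transporter GLAST, stood at 1318 ± 90.6 against 1665 ± 81.3 CPM, which is 1.26-fold lower (edgeR adjusted p = 0.000223). Ptch1, the Sonic hedgehog receptor, was 1.46-fold lower, at 97.4 ± 10.8 against 142 ± 11.8 CPM (edgeR adjusted p = 0.000378). Hopx was 1.22-fold lower, at 118 ± 7.21 against 145 ± 10.0 CPM, and did not pass among libraries with Ttr under 100 CPM (-0.14, edgeR adjusted p = 0.0971).

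Of 25 genes of reactive astrocytes 14 rose and 1, H2-D1, fell, against 13.5% and 14.6% of all genes, with a median of 0.43. C4b (17:34728380-34743882), the complement component C4, stood at 36.8, 32.3, 34.7, 35.1 and 38.2 CPM in ATXN1[82Q] and at 13.7, 15.4, 13, 14.3 and 13.2 CPM in the substituted libraries, with wild type at 11.2 ± 1.76. The gap between the groups was wider than the range within either. C4b was 2.54-fold higher (edgeR adjusted p = 9.54e-08). Serpina3n, a secreted protease inhibitor, was 1.36-fold higher, at 87.0 ± 5.03 against 64.0 ± 3.49 CPM. Cd109, a membrane protein of reactive astrocytes, was 1.93-fold higher, at 2.34 ± 0.317 against 1.21 ± 0.275 CPM.

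Microglia are the resident macrophages of the brain, and all 24 of their markers rose, against 13.5% of all genes, with a median log2 fold change of 0.76. The median difference of the substituted genotype from wild type was 0.12. The summed level of the list ran from 461 to 517 CPM in ATXN1[82Q], from 261 to 310 CPM in the substituted genotype and from 242 to 288 CPM in wild type. Trem2 (17:48346401-48354147), the receptor through which microglia sense lipids and debris, stood at 12.1, 9.17, 10.2, 11.6 and 10.1 CPM in ATXN1[82Q] and at 4.85, 5.24, 4.47, 4.35 and 3.64 CPM in the substituted libraries. The groups did not overlap and the difference was 2.35-fold (log2 fold change 1.24 ± 0.11 SE, edgeR adjusted p = 1.46e-06). C1qa, a subunit of the complement initiator C1q, stood at 41.4, 35.0, 36.7, 39.1 and 37.2 CPM against 19.0, 19.7, 18.8, 21.2 and 18.4 CPM. It too was higher in each ATXN1[82Q] library, by 1.95-fold on average (edgeR adjusted p = 7.03e-08).

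Within the list the rises were unequal. The signalling adaptor Tyrobp, the lysosomal protein Cd68 and the calcium-binding protein Aif1 were 2.01-fold, 2.03-fold and 2.02-fold higher, and Fcrls, an Fc receptor-like gene of microglia, 2.10-fold higher. Csf1r, the receptor on which microglial survival depends, was 1.6-fold higher, at 52.7 ± 2.37 against 33.0 ± 1.58 CPM. P2ry12, a purine receptor of microglia, was 1.23-fold higher, at 18.9 ± 1.11 against 15.3 ± 1.49 CPM (edgeR adjusted p = 0.00551), and Tmem119, another microglia marker, 1.38-fold higher, at 11.8 ± 0.429 against 8.60 ± 0.429 CPM. P2ry12 did not pass among libraries with Ttr under 100 CPM (0.35, edgeR adjusted p = 0.0759).

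Genes that microglia switch on around damaged neurons or amyloid gave the highest median of the lists apart from that of brainstem neurons. Of 24 disease-associated microglia genes 21 rose, against 13.5% of all genes, with a median of 0.78. Cst7, an inhibitor of lysosomal proteases, stood at 1.33, 0.709, 0.789, 0.749 and 0.699 CPM in ATXN1[82Q] and at 0.173, 0.219, 0.0261, 0.259 and 0.182 CPM in the substituted libraries. The lowest ATXN1[82Q] library was above the highest substituted one, and the fitted difference was 4.87-fold (log2 fold change 2.28 ± 0.34 SE, edgeR adjusted p = 0.000154). The chemokine Ccl3 was 5.81-fold higher, at 1.11 ± 0.354 against 0.187 ± 0.0631 CPM, and the integrin Itgax 3.64-fold, at 2.04 ± 0.469 against 0.556 ± 0.130 CPM. Lpl, lipoprotein lipase, was 3.08-fold higher, at 3.67 ± 0.475 against 1.19 ± 0.266 CPM. Apoe, the main brain apolipoprotein and mostly an astrocyte product, stood at 1656 ± 61.3 against 1116 ± 73.2 CPM, which is 1.48-fold higher. Clec7a, annotated as a polymorphic pseudogene, was 3.96-fold higher, at 1.79 ± 0.490 against 0.447 ± 0.170 CPM.

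Spp1 (osteopontin) was 2.17-fold higher, at 29.8, 49.2, 23.1, 22.7 and 42.8 CPM against 16, 18.2, 15, 15.1 and 13.1 CPM (edgeR adjusted p = 0.00428). It was highest in ATXN1[82Q] replicates 2 and 5, and without both it did not pass (0.70, edgeR adjusted p = 0.0578).

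Lists of lysosomal, complement, antigen presentation and interferon genes, which also hold some of the microglial markers, had members that rose. Of 24 lysosomal genes 17 rose, against 13.5% of all genes, with a median of 0.26, led by Cd68 and by cathepsin S (Ctss), which was 1.76-fold higher at 59.8 ± 2.29 against 34.1 ± 3.46 CPM. Of 20 complement genes 13 rose, against the same share, with a median of 0.51. C3 stood at 5.05, 4.87, 2.72, 5.39 and 2.96 CPM against 1.14, 1.07, 0.966, 2.31 and 0.857 CPM, 3.30-fold higher without overlap (edgeR adjusted p = 0.00023). Substituted replicate 4 was the library that came closest to ATXN1[82Q].

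Of 20 genes of MHC antigen presentation 12 rose and 1 fell, against 13.5% and 14.6% of all genes, with a median of 0.39. The class II genes Cd74 and H2-Aa were 1.83-fold and 1.68-fold higher, Cd74 at 11.2 ± 1.74 against 6.11 ± 0.692 CPM. H2-D1, a class I gene, went the other way, at 70.9 ± 3.71 in ATXN1[82Q], 94.3 ± 9.57 in the substituted genotype and 112 ± 3.76 CPM in wild type (direct log2 fold change -0.41 ± 0.06 SE, edgeR adjusted p = 7.54e-05). Class I genes are close copies of each other, so counts may have been split between them. Of 23 interferon response genes 10 rose, against 13.5% of all genes, and 13 did not pass, with a median of 0.48. Ifitm3 was 1.52-fold higher, at 11.0 ± 0.929 against 7.25 ± 0.701 CPM.

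**Figure D5:**
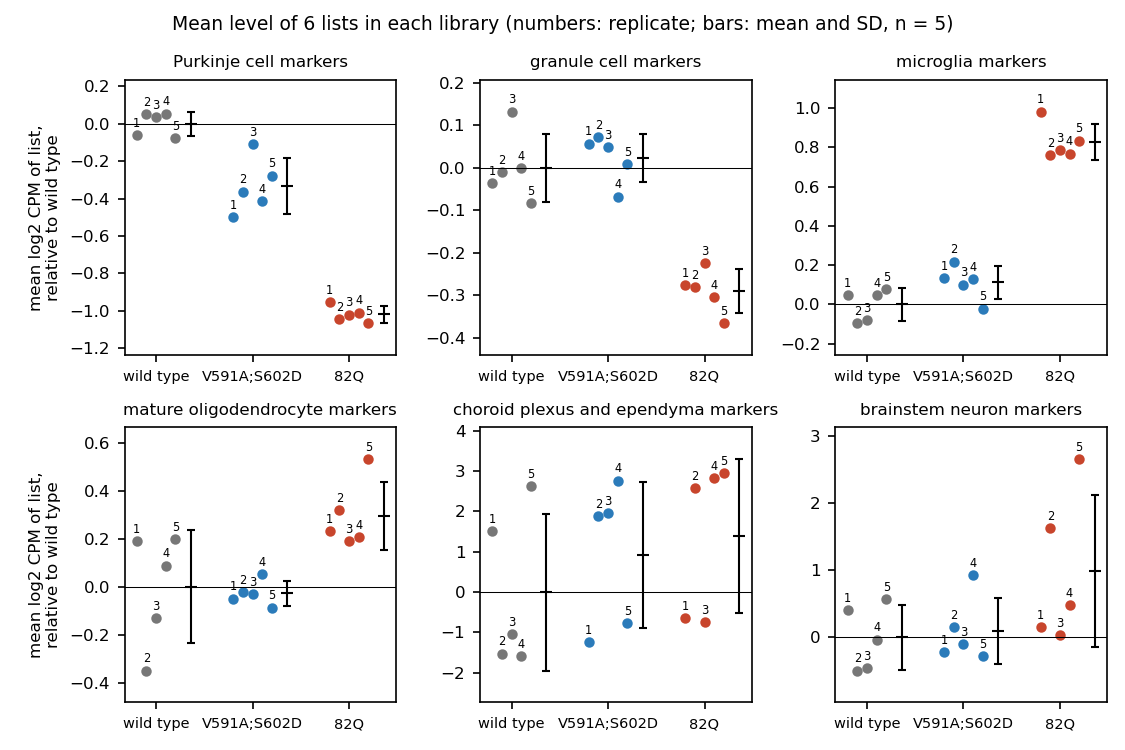
Mean log2 CPM of 6 marker lists (y axis, relative to the wild-type mean) in each library of wild type, the substituted genotype (V591A;S602D) and ATXN1[82Q] (82Q), with the replicate number above each point and bars for the mean and SD. Purkinje, granule, microglia and oligodendrocyte means separate the transgenic genotypes. Choroid plexus means vary by library within every genotype, and brainstem means are highest in 82Q replicates 2 and 5.

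Myelin genes were higher in ATXN1[82Q], and the number called depended on which libraries were fitted. The part of tissue composition in this was not tested. Of 18 markers of mature oligodendrocytes 15 rose, against 13.5% of all genes, with a median of 0.35. Cldn11, the tight junction protein of myelin, stood at 160, 162, 163, 166 and 178 CPM against 117, 129, 128, 133 and 122 CPM, 1.32-fold higher without overlap (edgeR adjusted p = 0.000767). Mbp, myelin basic protein, stood at 3800, 4230, 3704, 3748 and 4707 CPM against 3084, 3221, 3147, 3402 and 3023 CPM (log2 fold change 0.35 ± 0.09 SE, edgeR adjusted p = 0.0113). Its highest values were in ATXN1[82Q] replicates 2 and 5, which were highest in brainstem markers, and without both Mbp did not pass (0.24, edgeR adjusted p = 0.0962). Without both, 3 of the 18 markers were called higher, against 1380 of all 15992 genes tested then. Without ATXN1[82Q] replicate 5 alone 9 were, against 1677 of 15896 genes. Wild-type libraries ranged from 5444 to 8074 CPM in the summed level of the list, the substituted libraries from 6568 to 7404 CPM and ATXN1[82Q] from 8391 to 10625 CPM.

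Oligodendrocyte precursor markers rose in 9 of 12 tested, against 13.5% of all genes, with a median of 0.28. Bmp4, a signal that holds back their maturation and marks newly committed cells, was 1.75-fold higher, at 6.33 ± 0.875 against 3.61 ± 0.475 CPM (edgeR adjusted p = 0.0006). Endothelial and mural markers rose in 5 of 20, against 13.5% of all genes, with a median of 0.15. Pdgfrb, the receptor of pericytes, was 1.26-fold higher, at 28.3 ± 1.19 against 22.4 ± 1.36 CPM, and the endothelial markers Cldn5 and Pecam1 did not pass (edgeR adjusted p = 0.173 and 0.162).

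Markers of neighbouring tissue varied widely between libraries of the same genotype. Of 16 choroid plexus and ependyma markers 1 rose, against 13.5% of all genes. It was Rarres2, whose exons overlap those of Lrrc61 over 33.6% of their length. The list had a median of 0.51. That median turned to -0.27 without both brainstem-rich libraries and to -0.92 with the brainstem marker mean as a covariate. Their sum ran from 342 to 7936 CPM in ATXN1[82Q] and from 306 to 5784 CPM in the substituted genotype. Of 9 tested brainstem neuron markers 2 rose, Calca and Slc5a7, against 13.5% of all genes, with a median of 1.32. At an unadjusted p under 0.05 in edgeR, 7 of the 9 were higher and 0 lower in ATXN1[82Q]. Relative to wild type the list mean was 0.99 (SD 1.13) log2 units in ATXN1[82Q] and 0.10 (SD 0.50) in the substituted genotype. Calca, a neuropeptide precursor, stood at 3.14 CPM in ATXN1[82Q] replicate 5 and at no more than 0.979 CPM in the other 9 transgenic libraries (edgeR adjusted p = 0.0172), and its call was lost without that library (adjusted p = 0.0772) and without both brainstem-rich libraries (adjusted p = 0.233). Slc5a7, the choline transporter, lost its call without ATXN1[82Q] replicate 5 (adjusted p = 0.081) or substituted replicate 3 (adjusted p = 0.0523), without both brainstem-rich libraries (adjusted p = 0.145) and with the brainstem marker mean as a covariate (adjusted p = 0.188).

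Stress genes showed a weaker and more variable pattern. Of 20 genes of the unfolded protein and integrated stress responses 8 fell and 2 rose, against 14.6% and 13.5% of all genes, with a median of -0.11. Against wild type the median of the list was -0.07 for ATXN1[82Q] and 0.21 for the substituted genotype. Those that fell are chaperones and related proteins of the endoplasmic reticulum. Hspa5 (BiP), the main chaperone there, stood at 386.3, 414, 338, 283 and 219 CPM in ATXN1[82Q] and at 427, 432, 453, 412 and 502 CPM in the substituted libraries, with wild type at 375 ± 58.2. The groups overlapped slightly, the ATXN1[82Q] libraries spread more, and the fall (log2 fold change -0.44 ± 0.14 SE, edgeR adjusted p = 0.0263) was lost on leaving out ATXN1[82Q] replicate 4 or 5 (adjusted p = 0.0669 and 0.0552) or substituted replicate 3 or 5 (0.0506 and 0.0662). Sdf2l1, a cofactor of BiP, was 1.64-fold lower, at 9.51 ± 3.09 against 15.6 ± 2.42 CPM (edgeR adjusted p = 0.0186), and lost its call with the brainstem marker mean as a covariate (adjusted p = 0.116).

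Of 22 cytosolic and mitochondrial heat shock chaperones 6 fell and 1, Hspa2, rose, against the same shares, with a median of -0.09. The median against wild type was -0.05 for ATXN1[82Q] and 0.10 for the substituted genotype. Hspa2 did not pass without both brainstem-rich libraries (0.25, edgeR adjusted p = 0.0629). Hspa4l was 1.23-fold lower, at 170 ± 13.6 against 210 ± 11.4 CPM (edgeR adjusted p = 0.0017). Of 19 immediate early genes 1 rose, against 13.5% of all genes. It was Jun, at 111 ± 6.32 against 88.8 ± 14.8 CPM (edgeR adjusted p = 0.0172), a call lost with the brainstem marker mean as a covariate (adjusted p = 0.0701). Of 22 enzymes of cholesterol synthesis edgeR and DESeq2 each called 0, against 28.1% of all genes in edgeR. With edgeR 3 were lower at an unadjusted p under 0.05, and the list median was -0.01.

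The 12 largest rises by the naming rule included Mslnl, C4b, Gfap, D430019H16Rik, Trem2, Hrk, Lyz2, Spp1, Cd68, Tyrobp and C1qb, of which several encode proteins of complement, reactive astrocytes or microglia described above. Hrk (5:118164648-118189478), a BH3-only protein that promotes apoptosis of neurons, stood at 32.6, 30.0, 40.9, 32.8 and 36.2 CPM in ATXN1[82Q] and at 20.8, 18.1, 11.1, 14.6 and 9.45 CPM in the substituted libraries, with wild type at 9.87 ± 1.12. The rule fixes that the transgenic genotypes do not overlap, and the difference was 2.33-fold (edgeR adjusted p = 5.77e-05). Mslnl, a mesothelin-like gene, was 2.82-fold higher, at 7.04 ± 1.43 against 2.49 ± 0.872 CPM with wild type at 0.919 ± 0.377. Its substituted level was above wild type as well (log2 fold change 1.44, edgeR adjusted p = 0.0108).

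Colec10 and Bmp8a, both of low level, lay outside the naming rule and were chosen after their values were seen. Colec10 (15:54410774-54466358), a collectin that binds sugars, had 71, 46, 67, 54 and 44 counts in the ATXN1[82Q] libraries, 6, 2, 0, 3 and 4 counts in the substituted libraries and 0 counts in all 5 wild-type libraries. It showed the largest fitted rise of any called gene, with a log2 fold change of 4.12 ± 0.41 SE (edgeR adjusted p = 1.79e-05), at 1.38 ± 0.362 against 0.0758 ± 0.0560 CPM. Bmp8a (4:123312645-123343252), a bone morphogenetic protein, had 18, 15, 24, 28 and 31 counts in ATXN1[82Q] against 44, 108, 121, 58 and 157 in the substituted libraries, without overlap, and was 4.42-fold lower (edgeR adjusted p = 0.000168). The libraries were amplified and carry no molecular identifiers, so such counts do not give the number of transcripts seen.

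A small set of genes was picked because the substituted genotype was called against both others. By the naming rule 6 protein-coding genes were called in the direct comparison and between the substituted genotype and wild type. They were not called between ATXN1[82Q] and wild type, and these comparisons share libraries. Their separation thus restates the rule. Between the substituted genotype and wild type the edgeR adjusted p was 0.00524 for Igip. For Prkcd, Irs2, Ehd1, Zc3h4 and Pde2a it was 0.0385, 0.0204, 0.0396, 0.0441 and 0.0366, nearer the limit of 0.05. Igip (18:36298679-36301517), a secreted peptide that induces immunoglobulin A, stood at 61.4, 60.0, 55.2, 59.7 and 59.4 CPM in the substituted libraries and at 74.2, 73.5, 80.6, 84.6 and 75.3 CPM in ATXN1[82Q], with wild type at 75.3 ± 7.91. The substituted libraries were below every ATXN1[82Q] library, by 1.31-fold on average (edgeR adjusted p = 0.000214). Prkcd, a protein kinase C, was likewise lowest in the substituted genotype, at 111 ± 4.8 against 129 ± 6.65 in ATXN1[82Q] and 131 ± 12.8 CPM in wild type. Irs2, an adaptor of insulin signalling, was highest there, at 46.0 ± 2.37 against 38.8 ± 2.21 and 38 ± 3.20 CPM, and so was the membrane trafficking protein Ehd1, at 133 ± 5.25 against 120 ± 2.47 and 122 ± 3.40 CPM. Zc3h4, a zinc finger protein, stood at 98.4 ± 4.77 in the substituted genotype against 86.7 ± 3.21 CPM in ATXN1[82Q] (edgeR adjusted p = 0.00248). Prkcd, Irs2, Ehd1 and Zc3h4 lost the direct call among the libraries with Ttr under 100 CPM (adjusted p = 0.187, 0.0589, 0.0774 and 0.0821). Pde2a, a cyclic nucleotide phosphodiesterase, stood at 44.1 ± 2.45 CPM in the substituted genotype against 50 ± 3.61 in ATXN1[82Q] (edgeR adjusted p = 0.0474) and lost its call on leaving out ATXN1[82Q] replicate 1, 3, 4 or 5 (adjusted p = 0.0695, 0.056, 0.118 and 0.098) or substituted replicate 1, 2, 3 or 4 (0.0759, 0.108, 0.0559 and 0.0935), and without both brainstem-rich libraries (0.0659).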

How the data were processed

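Total RNA from cerebellum was made into cDNA with the NuGEN Ovation RNA-Seq System v2, with both poly(A) and random priming, and sequenced on an Illumina HiSeq, per the labels' protocols. Per the submitters' processing notes, STAR 2.5.3a, HTSeq, DESeq2 and mm10 were used. The deposited values are whole-number counts per gene that the authors did not normalise. For the annotation, strand setting and counting mode the sources used here give nothing, and the kit does not mark strand, so reads of overlapping genes cannot be told apart. Reads outside genes (16.8% to 18.2%), those matching several genes (1.18% to 1.25%) and those aligned to several places (12.8% to 14.6%) were left out.

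All 15 libraries were fitted together with edgeR 4.0.16 in R 4.3.3 (quasi-likelihood F-test, a mean per genotype, TMM factors, filterByExpr with a minimum count of 10). Benjamini-Hochberg adjustment covered 15843 genes, and calls were made at 0.05. Differences are ATXN1[82Q] minus the substituted genotype. CPM are TMM-scaled, except summed marker levels, and are not corrected for gene length. Positions and biotypes are from GENCODE (GRCm38), where 23376 of 24421 symbols matched. DESeq2 1.42.0 was an alternative. On simulated counts for 15732 genes, 82 of 99 genes changed 1.5-fold and 88 of 97 changed 2-fold were called, with 6 false calls.

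Named genes were the 12 largest rises and falls (protein-coding, called, log2 CPM averaging 2 or more, genotypes not overlapping), up to 4 called members of each list, 18 fixed genes, and genes called against the substituted genotype and between it and wild type only. Further list members were named after their values were seen. The comparison, the lists and the members were chosen with earlier results of these data known. Some named genes are not reported here.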

Additional observations from a re-analysis of the deposited data

Results flagged for a closer look

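In groups of 5 libraries, 25 of the checked groups of single genes and list means (6.48%) held a library whose gap to its neighbour was over 0.71 of the range of the group, where chance gives about 1 in 20. ATXN1[82Q] replicate 1 was the highest of its group for Trabd2b (7.70 CPM), Gfap (488.0 CPM), Lyz2 (28.4 CPM), Cst7 (1.33 CPM), Clec7a (2.66 CPM) and Itgax (2.84 CPM), and for the mean of the Bergmann glia and astrocyte list (0.11 log2 units above wild type). ATXN1[82Q] replicate 5 was highest for Col5a1 (11.1 CPM), Calca (3.14 CPM), Slc6a2 (6.86 CPM) and the mean of the cholesterol synthesis list (0.0725 log2 units), and lowest for Grb2 (152.7 CPM). ATXN1[82Q] replicate 3 was highest for Isg15 (2.27 CPM).

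Substituted replicate 3 was the highest of its group for Calb1 (912 CPM), Kcnab1 (155 CPM) and Ppp1r17 (287.0 CPM), all Purkinje cell or channel genes that were lower in ATXN1[82Q]. Replicate 4 was highest for C3 (2.31 CPM) and Slc6a2 (0.829 CPM) and lowest for Ncor1 (337.0 CPM) and the mean of the list of ATXN1, CIC and partners (-0.0211 log2 units). Replicate 5 was highest for Kcnc2 (9.92 CPM), Hsph1 (221 CPM) and the mean of the heat shock list (0.31 log2 units). Replicate 2 was highest for C1qb (14.7 CPM) and replicate 1 for Nxph1 (15.8 CPM). Apart from Calca and Hsph1, the named genes among these that were called kept their calls without the library in question. Hsph1, at 150 ± 15.5 CPM in ATXN1[82Q] against 178 ± 24.4 CPM (edgeR adjusted p = 0.0388), did not pass without substituted replicate 5 (adjusted p = 0.113).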

How the results depend on the processing

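Genes called higher and lower numbered 2134 and 2320. They were 608 and 904 among libraries with Ttr under 100 CPM (2 of each transgenic genotype and 3 of wild type), 1285 and 1477 with the brainstem marker mean as a covariate, and 306 and 248 when tested against a fold of 1.2 (glmTreat). With both brainstem-rich libraries left out, an alternative chosen after seeing the data, 1380 were higher. Leaving out single libraries gave 1630 to 2195 higher and 1825 to 2453 lower. Genes higher by over 2-fold numbered 158, or 95 with the brainstem covariate and 118 to 245 over single libraries left out (245 without substituted replicate 4). Those lower by over 2-fold numbered 51, or 29 with Ttr under 100 CPM and 40 to 60 over single libraries.

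Among lists, the calcium list had 0 genes higher with Ttr under 100 CPM in place of 1, and granule cell markers 8 lower in place of 20. Oligodendrocyte markers had 2 higher in place of 15 with Ttr under 100 CPM, 3 with the brainstem covariate, 3 without both brainstem-rich libraries and 9 to 15 over single libraries. CIC targets had 1 higher in place of 0 with DESeq2, with only the 10 transgenic libraries and with Ttr as a covariate, 0 to 1 over single libraries, and 4 lower in place of 7 with the brainstem covariate. Of the named genes that could be fitted, 46 lost a call with Ttr under 100 CPM, 32 with the brainstem covariate and 2 with DESeq2, and no called gene among them turned direction under the alternatives run, whereas the uncalled Barhl1, Cckbr, Nefh, Slc6a2 and Ttr took both signs. The replicate block gave 1968 higher and 2184 lower. Same-number pairs correlated above 0.1 in 2 of 5 cases, and 1 of 5 ATXN1[82Q] libraries correlated best with its own number. These correlations over all genes also carry differences in neighbouring tissue, so they cannot show whether same-number libraries share a batch. The main fit did not pair the libraries. Among called genes the share that was higher was 47.9%, 40.2% with Ttr under 100 CPM. Genes of low level rest on few counts.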
